A study of Rattus norvegicus with 2 samples.

Results

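Control of messenger RNA decay was followed through 8 genes whose proteins bind the 3′ ends of cytokine transcripts and set how long those transcripts last. The genes were chosen by name, as the tristetraprolin family (Zfp36, Zfp36l1, Zfp36l2), the regnases Zc3h12a and Zc3h12c, the roquins Rc3h1 and Rc3h2, and the stabilising protein gene Elavl1. Of the 8 genes, 7 had a row with a single gene symbol, among 22093 such genes in all. Rc3h1 had no such row, so it has no expression value here. All 7 lay above the floor on low values, an intensity of 49.3 on at least 1 array, which 14420 genes passed. No row carrying several symbols named any of the 8.

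The cells were primary cardiomyocytes, heart muscle cells, from neonatal SD rats, kept in culture for several days. One group received lipopolysaccharide (LPS, a component of the bacterial outer membrane) at 100 ng/mL, and the control group received vehicle. RNA was taken 24 h later in both. With 1 array for each group there was no replicate error to set a difference against and no test was made, so each difference below describes these 2 arrays. The sources used here do not say whether an array holds 1 culture or a pool.

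Tristetraprolin and its relatives carry a pair of CCCH zinc fingers that bind AU-rich elements, and they recruit the CCR4-NOT deadenylase, which shortens the poly(A) tail. Regnase-1, the product of Zc3h12a, is an endoribonuclease that cuts stem-loops in the 3′ ends of transcripts such as Il6, and in mice it has been reported to restrain inflammation in heart muscle. Roquins bind related stem-loops and also call in the deadenylase, while HuR, the product of Elavl1, binds AU-rich elements and in many cases protects the transcript.

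The promoters of 3 members are shown, because Zc3h12a and Zc3h12c were the members at least 2-fold higher with LPS and Zfp36 is the founding member of the tristetraprolin family. Each sequence runs from 250 bases before to 50 after the annotated RefSeq start in the GRCr8 build. Capitals mark GC boxes (GGGCGG, either strand) in Zc3h12a and the match to the NF-κB consensus in Zc3h12c. In Zfp36 they mark a match to the CArG box, the letter pattern of the serum response element core.
Zc3h12a, chr5:142669936-142670235, minus strand: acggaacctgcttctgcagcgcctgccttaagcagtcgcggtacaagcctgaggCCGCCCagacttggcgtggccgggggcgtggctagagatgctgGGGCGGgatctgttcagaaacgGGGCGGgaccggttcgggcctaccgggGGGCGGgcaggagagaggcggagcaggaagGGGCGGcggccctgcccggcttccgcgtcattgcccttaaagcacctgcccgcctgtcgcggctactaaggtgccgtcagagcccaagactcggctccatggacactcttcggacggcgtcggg
Zc3h12c, chr8:61400561-61400860, minus strand: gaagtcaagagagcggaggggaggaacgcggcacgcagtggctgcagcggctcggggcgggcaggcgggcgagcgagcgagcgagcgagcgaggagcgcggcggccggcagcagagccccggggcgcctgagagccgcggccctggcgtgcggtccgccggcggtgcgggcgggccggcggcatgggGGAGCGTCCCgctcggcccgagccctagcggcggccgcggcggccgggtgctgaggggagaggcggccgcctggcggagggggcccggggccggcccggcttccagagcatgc
Zfp36, chr1:92799059-92799358, minus strand: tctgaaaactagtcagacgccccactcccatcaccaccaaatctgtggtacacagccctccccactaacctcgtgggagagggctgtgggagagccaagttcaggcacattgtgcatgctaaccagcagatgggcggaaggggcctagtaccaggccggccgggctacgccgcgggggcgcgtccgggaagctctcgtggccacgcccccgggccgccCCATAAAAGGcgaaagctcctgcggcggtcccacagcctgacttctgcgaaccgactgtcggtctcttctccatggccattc

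For 7 of the 8 genes, all but Rc3h2, a promoter sequence was at hand, and 4 motifs were searched on both strands. Those 7 include Rc3h1, so they are not the same genes as the 7 measured members. GC boxes were present in 5 of the 7 promoters and in 33.1% of the 33469 rat promoters of the same length. Zc3h12a held 5 of them, between positions -196 and -69 from the start, and Zc3h12c held 2. Of the members within 1.5-fold between the arrays, Zfp36l2 held 5 and Zfp36 held 2, while Zfp36l1 and Elavl1 held none. Rc3h1, which has no expression value here, held 1. The NF-κB consensus was matched in 1 of the 7 promoters and in 7.51% of all promoters. That match was in Zc3h12c, at positions -63 to -54 on the opposite strand, and Zc3h12a held none. The CArG box match in Zfp36 lay at positions -32 to -23, sharing 1 base with a GC box beside it, and 1.64% of all promoters held a match. AP-1 matches (TGANTCA) were found in Zfp36l1 at positions -152 to -146 and in Rc3h1 at positions 40 to 46, against 7.33% of all promoters. These are letter matches in a short window, and binding was not measured.

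Both regnase genes were higher with LPS, while the tristetraprolin family, Rc3h2 and Elavl1 lay within 1.5-fold. Of the 7 measured members, 2 were at least 2-fold higher, where 3.69% of all genes above the floor were. None was at least 2-fold lower, where 2.63% of all genes were. At a size of 1.5-fold the members past it were again Zc3h12a and Zc3h12c, 2 higher and 0 lower, against 6.05% and 5.67% of all genes. At 3-fold, 1 was higher and 0 lower, against 2.20% and 0.784% of all genes. By direction alone, 4 members were higher (22.4% of all genes), 2 were lower (31.7%) and 1 was identical on both arrays (45.9%). The median log2 difference of the members was 0.05, and that of all genes above the floor was 0.

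**Figure D1:**
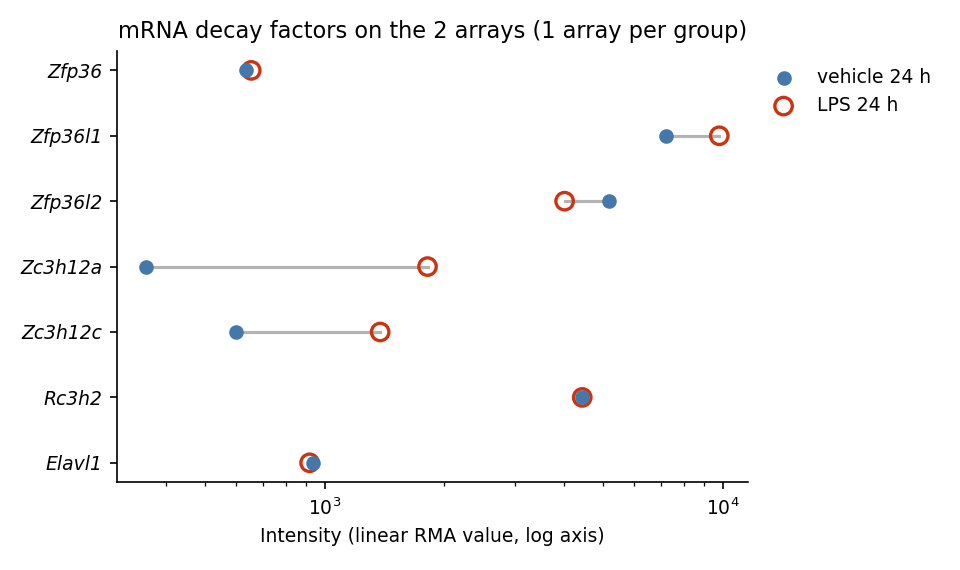
Intensity of each decay factor gene on the vehicle array (filled circles) and the LPS array (open circles), 1 array each, on a log axis. Zc3h12a and Zc3h12c show the long gaps, from 356 to 1814 and from 600.3 to 1379, while the circles of Rc3h2, Zfp36 and Elavl1 overlap. Levels are not comparable between genes, which have different probes.

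Zc3h12a (Entrez 313587), which encodes Regnase-1, read 356 on the vehicle array and 1814 on the LPS array. The LPS array was thus the higher, by 5.10-fold or 2.35 on the log2 scale. Of the 14420 genes, 190 had a larger positive difference and 98.7% lay below it. Its vehicle value was above 239, the 75th percentile of row means, so the difference does not rest on a value near the floor.

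Zc3h12c (Entrez 315658), which encodes the related ribonuclease Regnase-3, read 600.3 on the vehicle array and 1379 on the LPS array. It was 2.30-fold higher, a log2 difference of 1.20, and 453 genes had a larger positive difference. The other regnase paralogs, named here after their values were seen, showed no such difference. Zc3h12b was identical at 74.7 on both arrays, near the floor of 49.3, and Zc3h12d was identical at 28.1, below it. Such values do not show whether either transcript was expressed.

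Defining markers of cardiomyocytes were present, with all 8 above the floor and the lowest, Myl2, at 6539 on both arrays. Their summed level was 869021 with vehicle and 876736 with LPS, with 0 of 8 past 2-fold. Macrophage markers, which mark cells that also use regnase and tristetraprolin, were all 8 above the floor. Their summed level was 25947 with vehicle and 36456 with LPS, and their median log2 difference was 0.14. Adgre1 was 137-fold higher, from 64.4 to 8803 (36.8-fold once low values are raised), Cd14 3.92-fold and Itgam 2.47-fold higher. Csf1r was 3.39-fold and C1qb 4.07-fold lower, though C1qb was 1.48-fold lower with low values raised. Fibroblast markers summed to 505592 and 642476, with 3 higher and 2 lower by 2-fold or more. Dcn was 12.8-fold, Pdgfra 10.5-fold and Lum 5.89-fold higher, while Thy1 was 3.87-fold and Col3a1 2.70-fold lower. Endothelial markers summed to 1330 and 2479, where Kdr, from 715 to 1975, was the 1 of 6 past 2-fold, Pecam1 was identical, and Vwf and Emcn were at 49.3 on both arrays. Smooth muscle markers summed to 416248 and 151840, with Acta2 and Tagln at least 2-fold lower and Rgs5 2.51-fold higher (1.53-fold once low values are raised). Such sums are led by the probes with the brightest values and only describe each array. The lowest value of any row was 4.89 with vehicle and 4.49 with LPS, so a value above 0 does not show that a cell type was present. The part of these cell types in the higher Zc3h12a and Zc3h12c values was not tested. In such bulk RNA, fewer cells of a type and less RNA per cell cannot be told apart.

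Zfp36 (Entrez 79426), which encodes tristetraprolin, read 634 on the vehicle array and 654 on the LPS array. That is 1.03-fold, or 0.05 on the log2 scale, a size that 46.3% of all genes exceeded in one direction or the other. Zfp36 is known as an immediate-early gene in many cells, and times before 24 h were not analysed here.

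Zfp36l1 (Entrez 29344), whose protein binds the same AU-rich elements, read 7211 on the vehicle array and 9804 on the LPS array. It was 1.36-fold higher, at 0.44 on the log2 scale, and 15.4% of all genes differed by more in either direction. Zfp36l2 (Entrez 298765), the third family member on the array, was lower instead. Its row with the higher mean read 5166 with vehicle and 4007 with LPS, 1.29-fold lower, and 18.0% of all genes differed by more. A second row for Zfp36l2 read 2905 and 2753, 1.06-fold lower, so both rows had the same direction with different sizes. The row with the higher mean is one whose identifier marks it as unmapped on the array design.

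Rc3h2 (Entrez 311909), which encodes Roquin-2, had exactly the same intensity of 4438 on both arrays. Exact identity was common in these values, as 45.9% of genes above the floor show it, and whether it hides a small difference cannot be seen from them. Elavl1 (Entrez 363854), which encodes HuR, read 934 on the vehicle array and 917 on the LPS array, 1.02-fold lower. Its log2 difference of -0.03 was smaller in size than that of 49.3% of all genes.

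**Figure D2:**
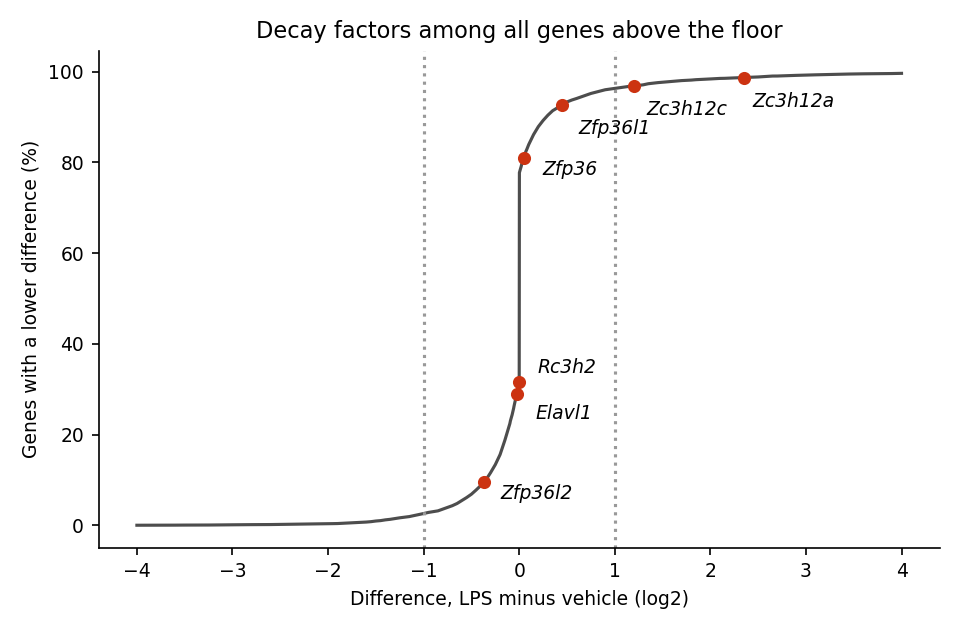
Share of the 14420 genes above the floor (vertical axis, percent) whose log2 difference, LPS minus vehicle, lies below the value on the horizontal axis; red points mark the 7 members and dotted lines mark 2-fold. Zc3h12a at 2.35 and Zc3h12c at 1.20 sit right of the upper line, and the steep step at 0 is made by genes with identical values.

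Of the processing choices, only removal of the loess trend could move every member. The array medians were equal, all 7 members lay above 239 on both arrays, and 6 of them had a single row, so centring, raising low values and averaging rows left those 6 as they were.

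**Figure D3:**
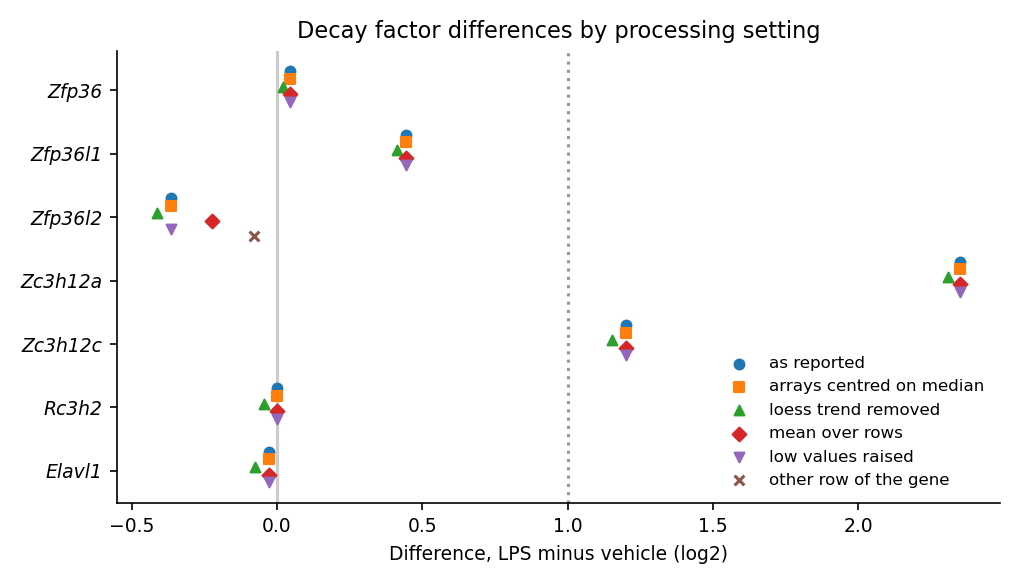
Log2 difference of each member, LPS minus vehicle, as reported and under each alternative processing setting (symbols), with 2-fold as a dotted line. Zc3h12a ranges from 2.31 to 2.35 and Zc3h12c from 1.15 to 1.20, and Zfp36l2 is the member whose symbols spread, from -0.41 to -0.08.

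The genes nearest to each regnase gene were found by the Euclidean distance over the log2 values of the 2 arrays, among named genes above the floor. For Zc3h12a these were Tnfrsf1b, a receptor for tumour necrosis factor, at a distance of 0.08, then Cpxm1 at 0.15 and Prr16 at 0.16. Tnfrsf1b read 340.5 with vehicle and 1878 with LPS. For Zc3h12c they were S1pr3, a sphingosine 1-phosphate receptor, at 0.09, Slc22a23 at 0.10 and Chst11, a chondroitin sulfotransferase, at 0.12. The distance includes the level of each row, which depends on its probes, so over these 2 arrays it says only that both values are close.

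The kinases, phosphatases and proteases that act on the members differed by 2-fold about as often as genes in general. Of 29 such genes above the floor, 1 was higher and 0 were lower by 2-fold or more, against 3.69% and 2.63% of all genes, with a median log2 difference of 0. The gene past 2-fold was Ikbke, an IκB kinase family member, at 191 with vehicle and 537 with LPS. It was 2.81-fold higher (2.25-fold once low values are raised). Dusp1, the phosphatase that switches off the p38 kinase upstream of tristetraprolin phosphorylation, read 4897 and 3303, 1.48-fold lower. Map2k6, a p38-activating kinase, was 1.25-fold lower from 103 to 82.6, both under 239. Ywhab, a 14-3-3 protein of the family that binds phosphorylated tristetraprolin, was 1.21-fold lower at 41483 and 34221. Ppp2ca, the catalytic subunit of phosphatase 2A, read 93555 and 86402. The next genes were named after their values were seen. Mapkapk2, the p38-activated kinase that phosphorylates tristetraprolin, was 1.09-fold higher, and Malt1, the protease that cleaves Regnase-1 and roquins in lymphocytes, was 1.15-fold higher.

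No gene of the decay machinery that the members recruit differed by 2-fold, a size that 3.69% of all genes passed upwards and 2.63% downwards. Over the deadenylation, decapping and exosome lists together, 73 genes were above the floor, of which 17 were higher, 20 lower and 36 identical. Their log2 differences ran from -0.59 to 0.51. In the deadenylation list, Btg1, a cofactor of the CCR4-NOT deadenylase, read 370 and 527, 1.42-fold higher with LPS. Cnot1, the scaffold subunit that tristetraprolin and roquins contact, was identical at 9873 and was named after its value was seen. The subunit Cnot9 was 1.28-fold lower, Tob1, another deadenylase adaptor, 1.11-fold higher, and the poly(A)-binding protein gene Pabpc4 1.11-fold lower.

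Xrn1, the exonuclease that degrades decapped transcripts from the 5′ end, was 1.41-fold higher at 2666 and 3758. The Lsm2 subunit of the ring that promotes decapping was 1.51-fold lower at 650 and 432, Lsm4 1.21-fold and Lsm3 1.15-fold lower. The decapping helicase gene Ddx6 was 1.08-fold higher and the cap-binding gene Eif4e 1.12-fold lower. In the exosome list, Exosc2 was 1.38-fold, Exosc8 1.33-fold and Exosc7 1.20-fold lower, while the uridylating enzyme gene Tut7 was 1.19-fold and Zfc3h1 1.09-fold higher.

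Other proteins that bind AU-rich or related elements were also within 2-fold, with 0 of 31 past that size, where so few of all genes pass it (3.69% higher and 2.63% lower) that the count is no result about the list. Of the 31, 6 were higher, 13 lower and 12 identical. N4bp1, a ribonuclease with a domain related to that of the regnases, had the largest difference of the list, 2853 with vehicle and 4818 with LPS, 1.69-fold higher. Ptbp1, a polypyrimidine tract-binding protein, was 1.56-fold lower at 8934 and 5720. Cpeb4, which binds cytoplasmic polyadenylation elements, was 1.28-fold higher and Pcbp1, which binds C-rich elements, 1.27-fold lower. Ybx1, a cold-shock domain protein, and Hnrnpab were 1.01-fold and 1.15-fold lower. Arid5a, whose protein opposes Regnase-1 on Il6 in mouse macrophages, was identical at 219 and was named after its value was seen.

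**Figure D4:**
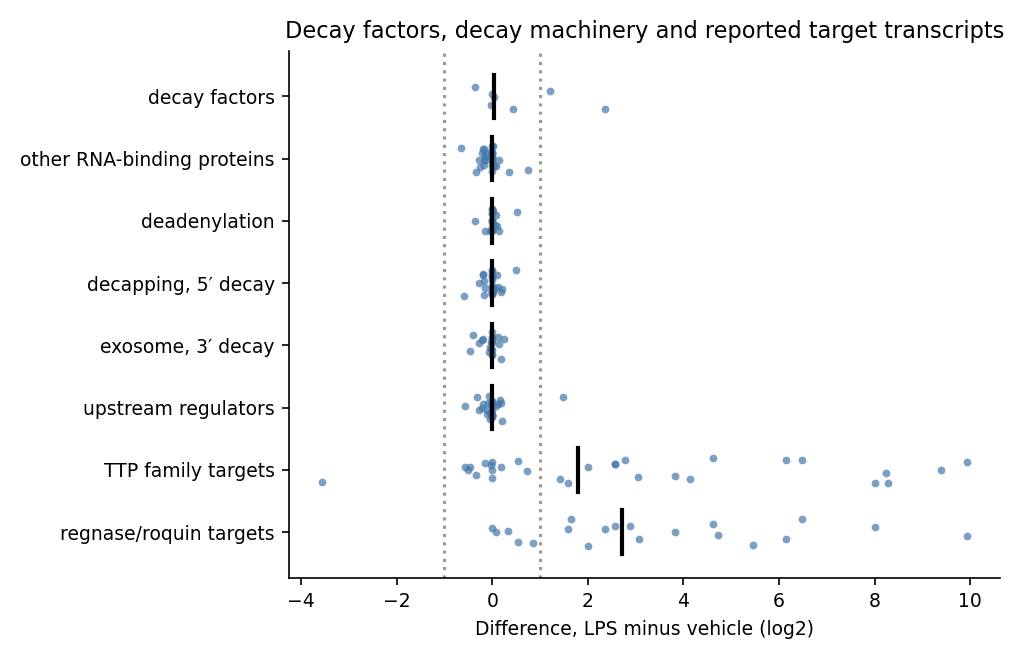
Log2 difference, LPS minus vehicle, of each gene above the floor in 8 lists (points, jittered vertically), with each list's median as a black bar and 2-fold as dotted lines. The machinery lists lie between the dotted lines, and Zc3h12a and Zc3h12c stand outside them in the top row. The medians of the target lists are 1.79 and 2.72 (0.95 and 2.50 with low values raised), the latter with Zc3h12a among its points. The target lists also hold Csf2, Cxcl2, Cxcl3, Lif and Nfkbid, which passed the floor only through the LPS array. Without these and Zc3h12a, the median over both target lists together was 1.61.

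Many transcripts that the literature names as targets of these proteins were higher on the LPS array. Leaving Zc3h12a itself out, the lists for the tristetraprolin family and for regnase or roquin held 39 different genes above the floor. Csf2, Cxcl2, Cxcl3, Lif and Nfkbid were under the floor with vehicle and entered only through the LPS array. They are left out of the counts over 34 genes that come next. Of the other 34, 19 were higher and 1 was lower by 2-fold or more, against 3.69% and 2.63% of all genes, with a median log2 difference of 1.61. With low values raised to 239, the median of all 39 was 1.36. With those 5 included, 17 of 30 genes in the tristetraprolin list and 14 of 19 in the regnase and roquin list were at least 2-fold higher. Transcript half-lives were not measured, and the lists were composed with earlier results of these arrays known.

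Il6, a target of both regnase and tristetraprolin, read 65.3 with vehicle and 4625 with LPS, 70.8-fold higher. Tnf, the first known target of tristetraprolin, read 93.9 and 2311, 24.6-fold higher. Cxcl1, a neutrophil chemokine, was 89.8-fold higher at 186 and 16733. Each of these vehicle values was under 239, and with low values raised to that level the log2 differences were 4.28 for Il6, 3.27 for Tnf and 6.13 for Cxcl1. The chemokines Ccl2 and Ccl3 already had high values with vehicle, 41001 and 9195, and were 5.96-fold and 17.6-fold higher.

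Over all 39 target genes, the 5 under the floor with vehicle included, 22 were at least 2-fold higher, against 3.69% of all genes. With low values raised to 239, 20 of the 39 were. Of the 22, 3 were under the floor with vehicle, and 15 had a vehicle value under 239. Among the others were Nfkbiz, a nuclear IκB protein, at 310 and 929, and Tfrc, the transferrin receptor, at 4627 and 14417, 3.12-fold higher. The targets Il1b, Il1a, Serpinb2, Nos2, Cxcl2 and Ptgs2 were among the 22 as well, and all but Ptgs2 of these had vehicle values under 239. The target at least 2-fold lower was Plau, a plasminogen activator. It was 11.9-fold lower, from 1377 to 116 (5.76-fold once low values are raised). Several reported targets were close or identical between the arrays, such as Myc at 900 and 879 and Plaur at 866 on both. Il10, Il12b and Il23a were identical on both arrays at 60.7, 76.6 and 58.0. These values are near the floor of 49.3 and do not show whether the 3 transcripts were expressed.

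**Figure D5:**
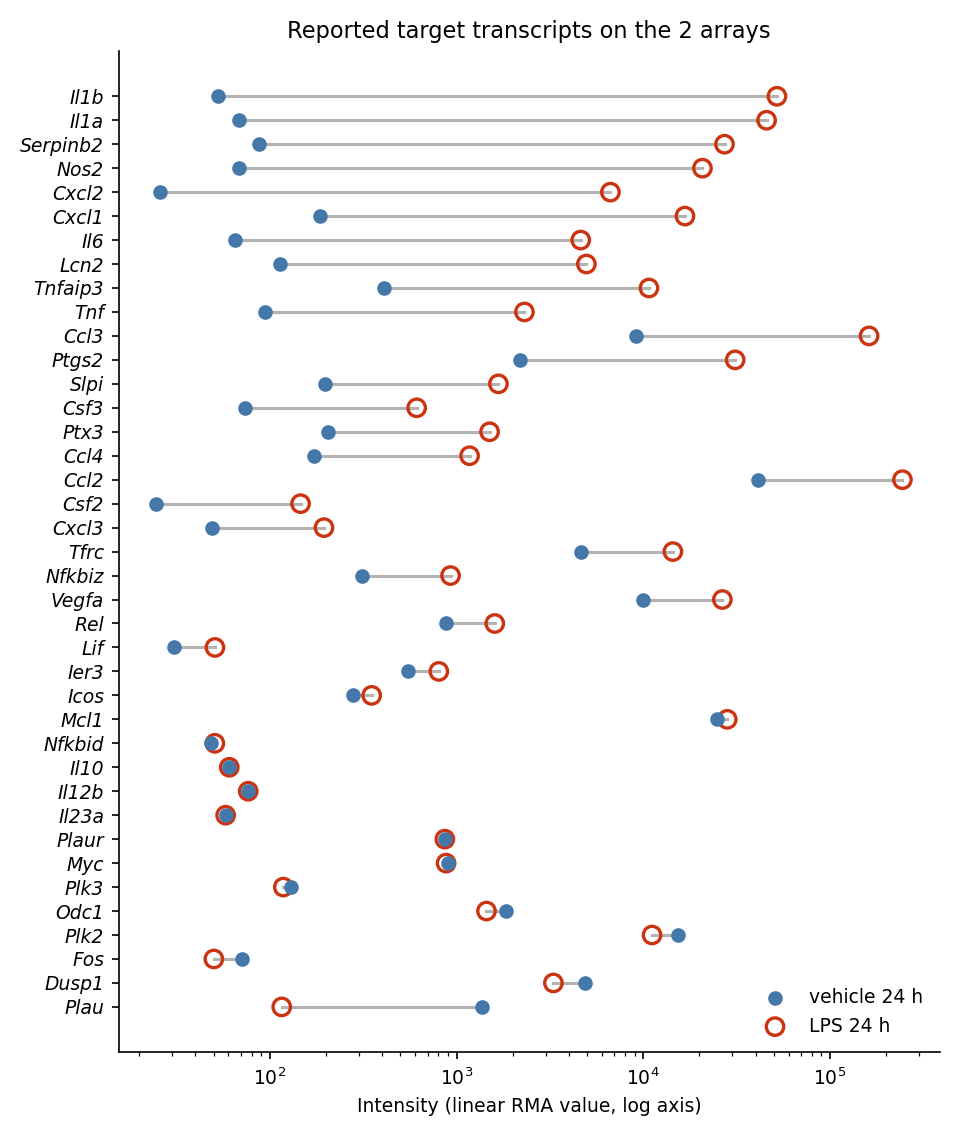
Intensity of the 39 reported target transcripts on the vehicle array (filled circles) and the LPS array (open circles), on a log axis, ordered by their difference. The upper 22 genes are at least 2-fold higher with LPS. Of these, Csf2, Cxcl2 and Cxcl3 were under the floor with vehicle. Plau at the bottom is lower, at 116 against 1377.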

How the data were processed

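Labelled cRNA was made with the GeneChip WT PLUS reagents, per the labels' protocols. The authors processed the arrays with RMA in Affymetrix Expression Console 1.4.1, per the submitters' processing notes, and deposited 1 intensity per row and array on a linear scale. The sources used here give neither the genome build nor the number of arrays processed together. The precision is limited by the number of arrays, 1 per group.

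Values were put on a log2 scale without a pseudocount or renormalization. Of 68842 rows, 23446 had 1 gene symbol, 505 several and 44891 none. Symbols were updated by Entrez ID against the RefSeq table of GRCr8, where 22077 rows matched and 1 was replaced. The row with the highest mean log2 stood for a gene. The floor was the median row mean, and a difference was counted at 2-fold. The counting step was run on known differences planted without noise in the vehicle values, which tests the counting alone.

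All 8 members were named, and from each of 7 other lists up to 4 genes with the largest differences and 2 with the highest levels, plus the 3 genes nearest to each 2-fold member. Other names were chosen after their values were seen. The members and lists were chosen with earlier results of these data known. Alternatives were array centring, loess (statsmodels 0.14.6, span 0.3), mean rows, raised low values, other floors and other sizes. Promoter sequences are RefSeq's.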

Additional observations from a re-analysis of the deposited data

How the results depend on the processing

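Over 205 combinations of result and alternative setting, 168 gave exactly the value reported, many of them because the setting could not move it, so their number is no sign of stability. The rest were held to tolerances of 0.25 on the log2 scale for a gene, 0.1 for a list median and 1.5 times for a count, with no replicate spread to draw on, and 12 lay outside. Removal of the loess trend, the setting that could move every member, left Zc3h12a at 2.31 and Zc3h12c at 1.15. Zfp36l2 was at -0.078 in its other row. At a size of 3-fold, 1 member, Zc3h12a, was higher, where 2.20% of all genes were, and 0 of the upstream regulators were. At 1.5-fold, 1 other RNA-binding protein was higher and 1 lower, and 1 decapping gene was lower, where 6.05% of all genes were higher and 5.67% lower. The median of the tristetraprolin targets was 0.95 with low values raised, 1.501 with no floor and 2.77 with the floor at 239. The median of the regnase and roquin targets was 2.50, 2.17 and 3.45 under the same settings. These settings change which genes enter or cap their low values. As reported, both target lists include genes that passed the floor only through the LPS array. Rc3h2, identical as deposited, was at -0.05 once the loess trend was removed. No paired analysis was possible because each group has 1 array.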

Other observations

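Further RNA-binding genes were looked at after the values had been seen. Of 19 other genes with symbols starting Zc3h, pseudogenes included, 18 were above the floor and none was at least 2-fold different in either direction, a share near that of all genes (3.69% higher and 2.63% lower), with 7 higher, 4 lower and 7 identical. The largest difference among them was that of Zc3hav1, whose product is an antiviral protein that binds CpG-rich viral RNA, at 2063 with vehicle and 3630 with LPS, 1.76-fold higher. Zc3h6 followed at 1.42-fold higher. For the enzymes and readers of the m6A mark on RNA, 14 genes were above the floor, 3 higher, 3 lower and 8 identical, and none was 2-fold different, again near the share of all genes. Mettl14, a subunit of the methyltransferase, was 1.27-fold lower at 4088 and 3222, and the demethylase gene Alkbh5 was 1.11-fold higher.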
